A study of Mus musculus with 48 samples.

Results

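The neurotrophins, the GDNF family and their receptors were followed through 9 genes of the dentate gyrus count table, out of 55357 genes in all. The ligands were Gdnf, Bdnf and Ntf3, and the receptors were Gfra1, Gfra2, Ret, Ntrk2, Ntrk3 and Ngfr. The genes were taken by name, with Gfra2 selected on its lowered counts in kainate libraries of both sides, so its kainate values are given as a description without a test. Because of this selection, counts of genes that rose or fell are over the 8 genes other than Gfra2. All 9 genes passed the filter for low counts. Gdnf had at most 7 counts in any saline library and passed through the kainate libraries where it was high. Its calls are therefore not independent of the filter. The libraries came from 24 C57BL/6J mice in which 1 hippocampus was injected with kainate, a glutamate receptor agonist that induces status epilepticus, or with saline. From each mouse the dorsal dentate gyrus of the injected side, called the epileptogenic zone (EZ), and that of the opposite side, the peri-ictal zone (PIZ), gave 1 polyA RNA library each. Mice were taken 3, 7 or 14 days after injection, which made 12 groups of 4 libraries, and saline-injected mice of the same day served as controls. Each group was planned with 2 males and 2 females that the sample records do not tell apart, and the age is given as 6 to 8 weeks in the records and 8 to 10 weeks in the methods. In this model the injected hippocampus itself loses neurons, and the PIZ was not injected. Bulk RNA of a dissected tissue cannot tell fewer cells of a type from less RNA per cell.

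Both families are secreted growth factors that support the survival, growth and synapses of neurons. The neurotrophins BDNF and NT-3 (encoded by Ntf3) act through the receptor tyrosine kinases TrkB (Ntrk2) and TrkC (Ntrk3), and all neurotrophins and their uncleaved precursors can bind p75NTR (Ngfr). GDNF and its relatives first bind a GFRα co-receptor that is anchored to the membrane by a lipid, GFRα1 for GDNF and GFRα2 for neurturin, and the complex then engages the receptor tyrosine kinase RET or, for some functions, the adhesion molecule NCAM. In the dentate gyrus, BDNF is made by granule cells in an activity-dependent way and is transported along their mossy fibers, and NT-3 is a known product of mature granule cells.

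Bdnf has several promoters, and transcription from some of them is driven by neuronal activity through the cAMP response element, whose core is TGACG. The 250 bases before each listed transcription start were searched for TGACG on both strands as a description. The set of RefSeq starts used here (build GRCm38.p6) gave 14 such windows for 6 of the 9 genes, and it held no start for Gfra2, Ret and Ntrk3. The core was present in 2 of the 14 windows, a share no higher than the 17.8% of all 32851 windows of the same length. The windows of Gfra1 and Ngfr, which also rose at day 3, did not hold it. Whether any match acts on its gene was not tested. The 2 windows that hold the core, of the ligands Bdnf and Gdnf, are shown with the match in capitals. Both matches lie on the minus strand and so read CGTCA, the first at chr2:109692186-109692435 on the plus strand with its first base at -35 from the start, and the second at chr15:7809798-7810047 on the plus strand at -50.
Bdnf: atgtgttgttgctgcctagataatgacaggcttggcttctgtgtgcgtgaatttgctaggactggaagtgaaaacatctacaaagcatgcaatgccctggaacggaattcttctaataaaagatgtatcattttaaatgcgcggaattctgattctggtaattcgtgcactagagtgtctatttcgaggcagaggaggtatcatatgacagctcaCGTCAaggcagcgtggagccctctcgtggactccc
Gdnf: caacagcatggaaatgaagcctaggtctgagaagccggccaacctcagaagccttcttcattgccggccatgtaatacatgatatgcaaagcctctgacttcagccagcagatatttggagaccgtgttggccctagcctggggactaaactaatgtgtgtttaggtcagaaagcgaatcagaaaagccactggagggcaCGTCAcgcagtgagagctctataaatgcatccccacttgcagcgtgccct
The other 6 windows of Bdnf and the other window of Gdnf did not hold these letters, and gene counts sum over all starts of a gene.

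The libraries held 17762656 to 25712975 counts each, and 21390 genes passed the filter. A gene was called changed when an edgeR quasi-likelihood model of all 48 libraries gave a fold change above 1.5 and a Benjamini-Hochberg adjusted p below 0.01. Levels are given as CPM, counts scaled to the TMM-adjusted library size, and each log2 fold change carries its standard error, with 4 mice per group. One library stood apart, the day 14 EZ library of kainate mouse 27, whose mean correlation with its group was 0.927, and the day 14 EZ fold changes of the 9 genes are given with and without it. The tissue label was checked on marker genes. In saline EZ libraries at day 3, the summed level of 8 granule cell markers lay between 1786 and 1905 CPM, that of 4 CA1 markers between 242 and 464 CPM, and that of 4 CA3 markers between 248 and 370 CPM, so the dissected tissue was not free of pyramidal cell RNA.

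Per kilobase of exon, the saline libraries ordered the genes in 3 tiers. Ntrk2 stood highest at 18.1 ± 1.28 CPM per kb (SD, n = 24 libraries from 12 mice), followed by Ntrk3 at 12.2 ± 0.842, with no overlap between their libraries. Gfra1 (9.60 ± 1.91), Gfra2 (9.50 ± 1.10) and Bdnf (9.05 ± 1.05) came next, lay within each other's spread, and reached up to 14.4 CPM per kb for Gfra1, into the range of Ntrk3. Ntf3 followed at 7.27 ± 1.39 CPM per kb, with a range that overlapped those of the 3 genes above it. Ret at 0.301 ± 0.0870, Ngfr at 0.170 ± 0.0545 and Gdnf at 0.0238 ± 0.0213 CPM per kb were far lower, and Gdnf had no count in 6 of the 24 saline libraries. Dividing by the canonical transcript instead of the union of exons placed Bdnf (16.8 CPM per kb) above Gfra1 (10.2), and kept the remaining order. Gene counts do not separate the kinase-bearing from the truncated forms of Ntrk2 and Ntrk3. In saline mice, 0 of the 8 genes were called between the EZ and the PIZ by edgeR, where 0.0234% of all genes were. At an unadjusted p under 0.05 the count was also 0, as it was with DESeq2. From day 3 to day 14, 0 of 8 genes were called on either side by edgeR or DESeq2, again with 0 at an unadjusted p under 0.05, and 0% of all genes were called.

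**Figure D1:**
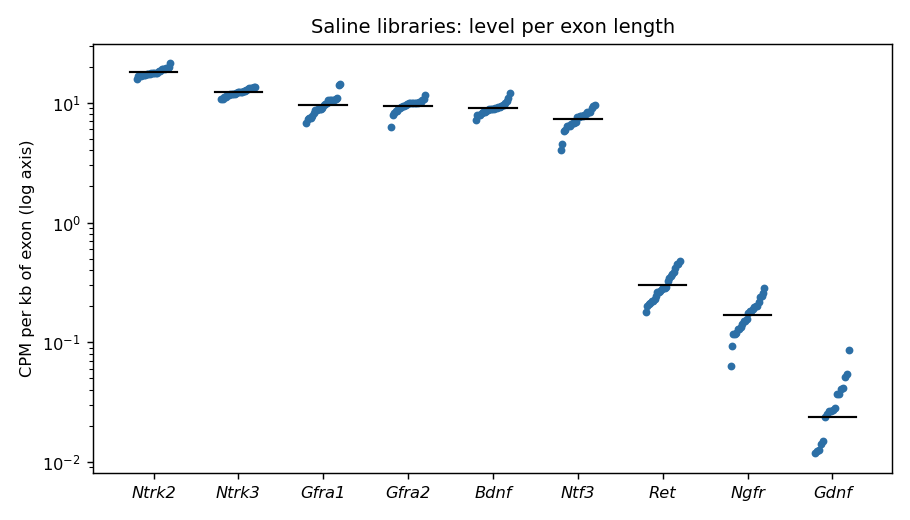
Level of the 9 genes in the saline libraries, in CPM per kb of exon on a log axis, with 1 point per library and a bar at the mean over 24 libraries. Ntrk2 and Ntrk3 lie at the top, and Ret, Ngfr and Gdnf lie below 1 CPM per kb; the 6 libraries with no Gdnf count cannot be drawn on this axis.

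On the injected side, the kainate mice had more Gdnf, Bdnf and Gfra1 RNA and less Ntf3 RNA than saline mice at days 3 and 7. At day 3, 5 of the 8 genes were called in the EZ against 24.7% of all genes. Gdnf, Gfra1, Bdnf and Ngfr rose (16.1% of all genes rose), and Ntf3 fell (8.61% fell). At day 7, 5 of 8 were again called against 32.5% of all genes, with Gdnf, Gfra1 and Bdnf higher (20.6%) and Ntf3 and Ntrk3 lower (11.9%). At day 14, Gdnf was the 1 gene of 8 called, against 2.36% of all genes, and that call was lost without mouse 27, and also without saline mouse 24, 28, 31 or 39 (adjusted p between 0.0174 and 0.03). Gdnf passed the filter for low counts only through kainate libraries. Its calls on each day are therefore not a fair count beside the share of all genes. Over the 8 genes the log2 fold changes had a median of 1.21 at day 3, then 0.95 at day 7 and 0.02 by day 14, beside medians of 0.03, 0.01 and 0.00 over all genes tested.

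The PIZ had no gene past the threshold among the 8 at any day. At day 3, 0 of 8 were called by edgeR and by DESeq2, 2 had an unadjusted p under 0.05, and limma-voom with quality weights called 3 (Bdnf, Ntf3 and Ngfr, among 2778 of 21390 genes), while 8.69% of all genes were called by edgeR. At day 7 the count was 0 of 8 by edgeR and by DESeq2, 1 at an unadjusted p under 0.05 and 1 (Ntf3, among 822 of 21390 genes) by limma-voom, against 0.201% of all genes by edgeR. By day 14 it was 0 of 8 by all 3 tools with 1 at an unadjusted p under 0.05, against 0.0140% of all genes. Their PIZ medians were 0.53, 0.17 and -0.20 on the log2 scale at days 3, 7 and 14, beside 0.02, 0.01 and 0.00 over all genes tested.

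The groups were also compared library by library. At day 3 in the EZ, all 4 kainate libraries lay above all 4 saline libraries for 5 of the 8 genes (23.9% of all genes) and below for 2 (18.5%). At day 7 these counts in the EZ were 5 (23.7%) and 2 (20.1%), and 2 genes, Ntf3 and Ntrk3, lay below at day 14 (3.42%). Kainate PIZ libraries at day 3 lay above for Gdnf, Bdnf and Ngfr (17.1% of all genes) and below for Ntf3 and Ntrk3 (13.6%). Ntf3 in the PIZ at day 7 (5.26% of all genes) and Ntrk3 in the PIZ at day 14 (3.47%) were each the 1 gene of 8 lower in every kainate library.

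**Figure D2:**
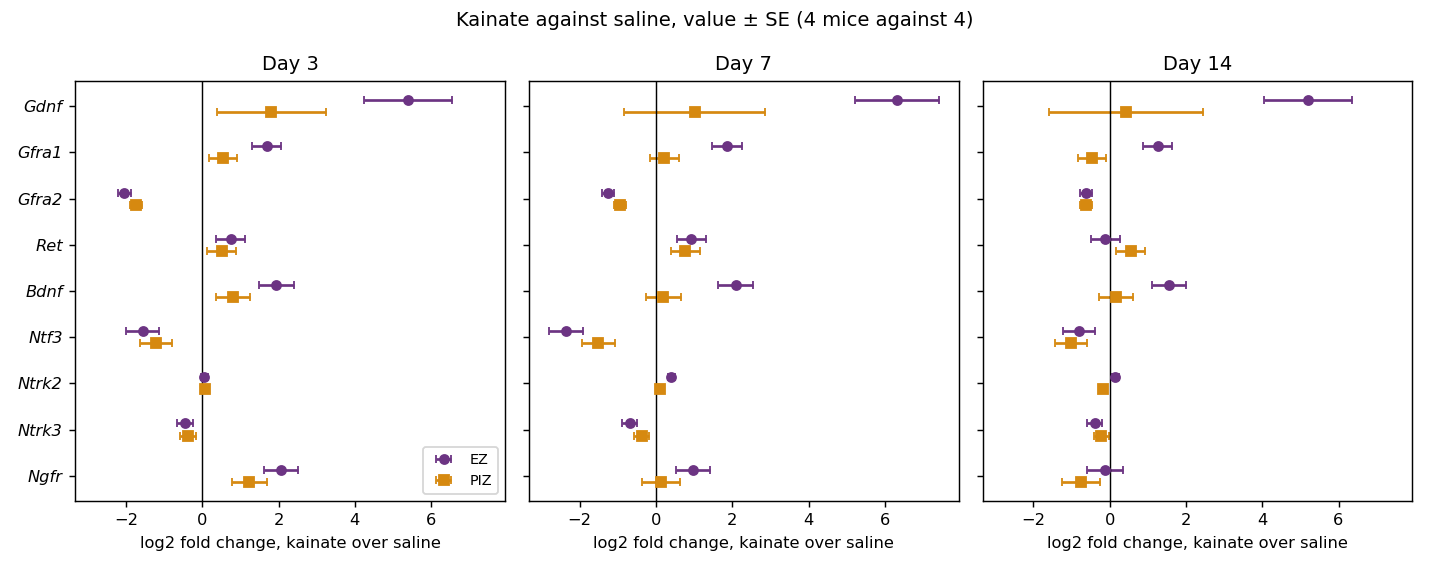
Log2 fold change of kainate over saline for each gene by day, with circles for the EZ, squares for the PIZ and bars of 1 SE (4 mice against 4). Gdnf, Gfra1 and Bdnf lie to the right and Ntf3 and Gfra2 to the left of 0 in the EZ at days 3 and 7; the Gdnf bars are the widest, and saline EZ libraries had 0 to 7 counts of it.

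Gdnf (ENSMUSG00000022144.5, GRCm39 chromosome 15, 7840327 to 7867060, plus strand) encodes the founding ligand of its family. Saline EZ libraries held at most 7 Gdnf counts each. Kainate EZ libraries at day 3 held 212, 130, 78 and 8 counts, or 8.11, 4.97, 2.83 and 0.337 CPM in mice 30, 38, 42 and 44. Every kainate library was above every saline library at day 3, but mouse 44, at 0.337 CPM, was just above the highest saline library at 0.315 CPM. Summed counts were 428 against 8, of which 7 came from saline mouse 29, a depth-adjusted ratio of 45.0 with an exact 95% interval of 22.6 to 105 that covers counting error alone, and the fitted log2 fold change was 5.39 ± 1.15 (adjusted p = 0.00021), or 7.59 ± 1.66 without mouse 29 (adjusted p = 0.000374). At day 7 mice 21, 23, 26 and 35 held 7.88, 3.16, 7.64 and 21.5 CPM, and the ratio of summed counts was 85.7 (46.4 to 179, log2 fold change 6.32 ± 1.10, adjusted p = 9.12e-06). All 4 lay far above the highest saline library of that day, which was at 0.188 CPM. The PIZ counts at day 3 were 14, 5, 6 and 7 against 2, 2, 1 and 3, with a ratio of 3.66 (1.65 to 9.20) and a fitted log2 fold change of 1.81 ± 1.43 (adjusted p = 0.38). Counts of 0 to 5 per library in both PIZ groups at days 7 and 14 left no difference detectable at this depth.

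Gfra1 (ENSMUSG00000025089.16, chromosome 19, 58223212 to 58444346, minus strand), the co-receptor that binds GDNF, rose beside it. EZ kainate libraries at day 3 held 225, 173, 177 and 185 CPM (mice 30, 38, 42 and 44) against 49.7, 67.3, 56.3 and 62.8 CPM in saline mice. The groups were separated by a wide gap, and the kainate mice differed little from each other, unlike for Gdnf. The log2 fold change was 1.69 ± 0.38 (3.22-fold, adjusted p = 0.000417). Kainate values at day 7 were 159, 119, 193 and 259 CPM (mice 21, 23, 26 and 35) against 43.2 to 55.3 CPM, a log2 fold change of 1.86 ± 0.38 (adjusted p = 9.31e-05). PIZ values at day 3 were 114, 71.7, 97.2 and 133 CPM against 90.3, 69.5, 68.8 and 56.6 CPM, which overlapped (0.55 ± 0.37, adjusted p = 0.303). Those at day 7 were 105, 43.9, 81.5 and 58.7 CPM against 47.5 to 67.5 CPM, again overlapping (0.22 ± 0.37, adjusted p = 0.843), and at day 14 the log2 fold change was -0.46 ± 0.38 (adjusted p = 0.966).

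Gfra2 (ENSMUSG00000022103.11, chromosome 14, 71127472 to 71217280, plus strand), the co-receptor that prefers neurturin, had the opposite course and was low on both sides. In the EZ at day 3 the kainate libraries held 8.80, 7.27, 10.2 and 7.49 CPM against 33.1, 31.1, 35.7 and 39.02 CPM in saline mice. The PIZ libraries of the same kainate mice held 8.85, 12.4, 13.6 and 9.83 CPM against 28.8, 36.8, 43.0 and 39.6 CPM. Within each side the groups did not overlap, and Gfra2 was selected on this lowering. Of all genes, 18.5% in the EZ and 13.6% in the PIZ were likewise lower without overlap. Levels were 4.12-fold lower in the EZ (log2 fold change -2.04 ± 0.16) and 3.32-fold lower in the PIZ (-1.73 ± 0.16). The EZ value was below the PIZ value in each of the 4 kainate mice, but also in most saline mice of that day. The EZ effect minus the PIZ effect was -0.31 ± 0.22, given without a test. At day 7 the kainate values were 10.97, 19.2, 15.6 and 12.5 CPM in the EZ and 13.4, 19.97, 18.2 and 21.985 CPM in the PIZ, 2.37-fold and 1.93-fold lower than in saline mice. At day 14 they were 21.7, 20.5, 25.0 and 25.6 CPM in the EZ against 34.1 to 36.4 CPM, and 22.7, 21.8, 21.3 and 16.02 CPM in the PIZ against 23.01 to 37.4 CPM, 1.54-fold and 1.53-fold lower. The 3 ranges of the EZ kainate groups followed each other without overlap from day 3 to day 14, while those of the PIZ overlapped. Mouse 27, which stood apart in other genes at day 14, held 20.5 CPM of Gfra2 in its EZ and so lay close to the 21.7 CPM of mouse 14, the next lowest. Saline levels of Gfra2 did not pass the test between the sides (log2 difference of EZ minus PIZ 0.02 ± 0.09, adjusted p = 0.964).

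Ret (ENSMUSG00000030110.14, chromosome 6, 118128706 to 118174769, minus strand), the signaling receptor that both co-receptors share, was scarce and was not called by edgeR between kainate and saline mice on either side at any day. The EZ kainate libraries at day 3 held 3.18, 4.71, 3.52 and 3.75 CPM against 1.59, 2.75, 2.63 and 2.09 CPM. Those of day 7 held 4.43, 2.45, 3.04 and 4.85 CPM against 1.63 to 2.08 CPM. The kainate values lay above the saline values without overlap on both days, but the log2 fold changes of 0.74 ± 0.37 (adjusted p = 0.0993) and 0.93 ± 0.38 (adjusted p = 0.0349) missed the threshold. In the PIZ the log2 fold changes were 0.51, 0.76 and 0.55 at days 3, 7 and 14 (adjusted p between 0.341 and 0.945), and the groups overlapped.

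Bdnf (ENSMUSG00000048482.15, chromosome 2, 109505045 to 109557475, plus strand) rose on the injected side with a spread between mice wider than that of Gfra1. EZ kainate libraries at day 3 held 539, 283, 241 and 97.4 CPM in mice 30, 38, 42 and 44, against 79.4, 83.8, 68.7 and 70.0 CPM in saline mice. Mouse 44 was nearest to the saline range, as it was for Gdnf, and the 4 mice had the same order for both ligands at day 3, which they did not at day 7. The log2 fold change was 1.94 ± 0.46 (3.84-fold, adjusted p = 0.000673), and without mouse 30 it was 1.46 ± 0.46 with an adjusted p of 0.0103, just outside the 0.01 threshold for a call. Values at day 7 were 140, 320, 294 and 365 CPM in mice 21, 23, 26 and 35 against 63.7 to 67.7 CPM (2.09 ± 0.46, adjusted p = 0.000221). All 4 kainate mice were above the saline range, mouse 21 the least. PIZ values at day 3 were 125, 128, 77.8 and 116 CPM against 60.4, 67.5, 59.9 and 69.6 CPM, without overlap. That difference of 0.80 ± 0.45 had an adjusted p of 0.2 with the spread shared over 48 libraries, and in a fit of the 4 day 3 PIZ kainate and 4 saline libraries alone it was 0.79 ± 0.14 with an adjusted p of 0.00205. PIZ values at day 7 were 48.1, 126, 56.6 and 69.3 CPM, overlapping the saline range of 60.2 to 71.3 CPM.

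Ntf3 (ENSMUSG00000049107.14, chromosome 6, 126078375 to 126143873, minus strand), which encodes NT-3, fell where Bdnf rose. The EZ kainate libraries at day 3 held 0.880, 3.10, 5.44 and 6.78 CPM in mice 30, 38, 42 and 44 against 11.7, 15.6, 10.3 and 10.1 CPM in saline mice. The order of the 4 kainate mice was the reverse of that for Bdnf and Gdnf at day 3, a description without a test, and not at day 7. The log2 fold change was -1.56 ± 0.43 (2.95-fold lower, adjusted p = 0.00301), and the call was lost when mouse 30 (adjusted p = 0.0182), mouse 38 (adjusted p = 0.0132) or saline mouse 29 (adjusted p = 0.0134) was left out. Values at day 7 were 1.45, 2.65, 5.07 and 1.58 CPM in mice 21, 23, 26 and 35 against 11.1 to 16.4 CPM (-2.37 ± 0.45, 5.17-fold lower, adjusted p = 2.87e-05). PIZ kainate libraries held 3.81, 2.06, 5.34 and 7.03 CPM against 7.80 to 11.8 CPM at day 3 (-1.21 ± 0.43, adjusted p = 0.0356), and 3.58, 1.78, 6.39 and 5.76 CPM against 11.1 to 13.7 CPM at day 7 (-1.52 ± 0.43, adjusted p = 0.0636). Every kainate value was below every saline value in these PIZ groups, although neither difference passed the threshold. At day 14 the EZ values were 6.60, 3.81, 9.67 and 11.4 CPM against 13.2 to 14.5 CPM, still without overlap (-0.79 ± 0.42, adjusted p = 0.32), and the PIZ groups overlapped (-1.01 ± 0.42, adjusted p = 0.731).

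**Figure D3:**
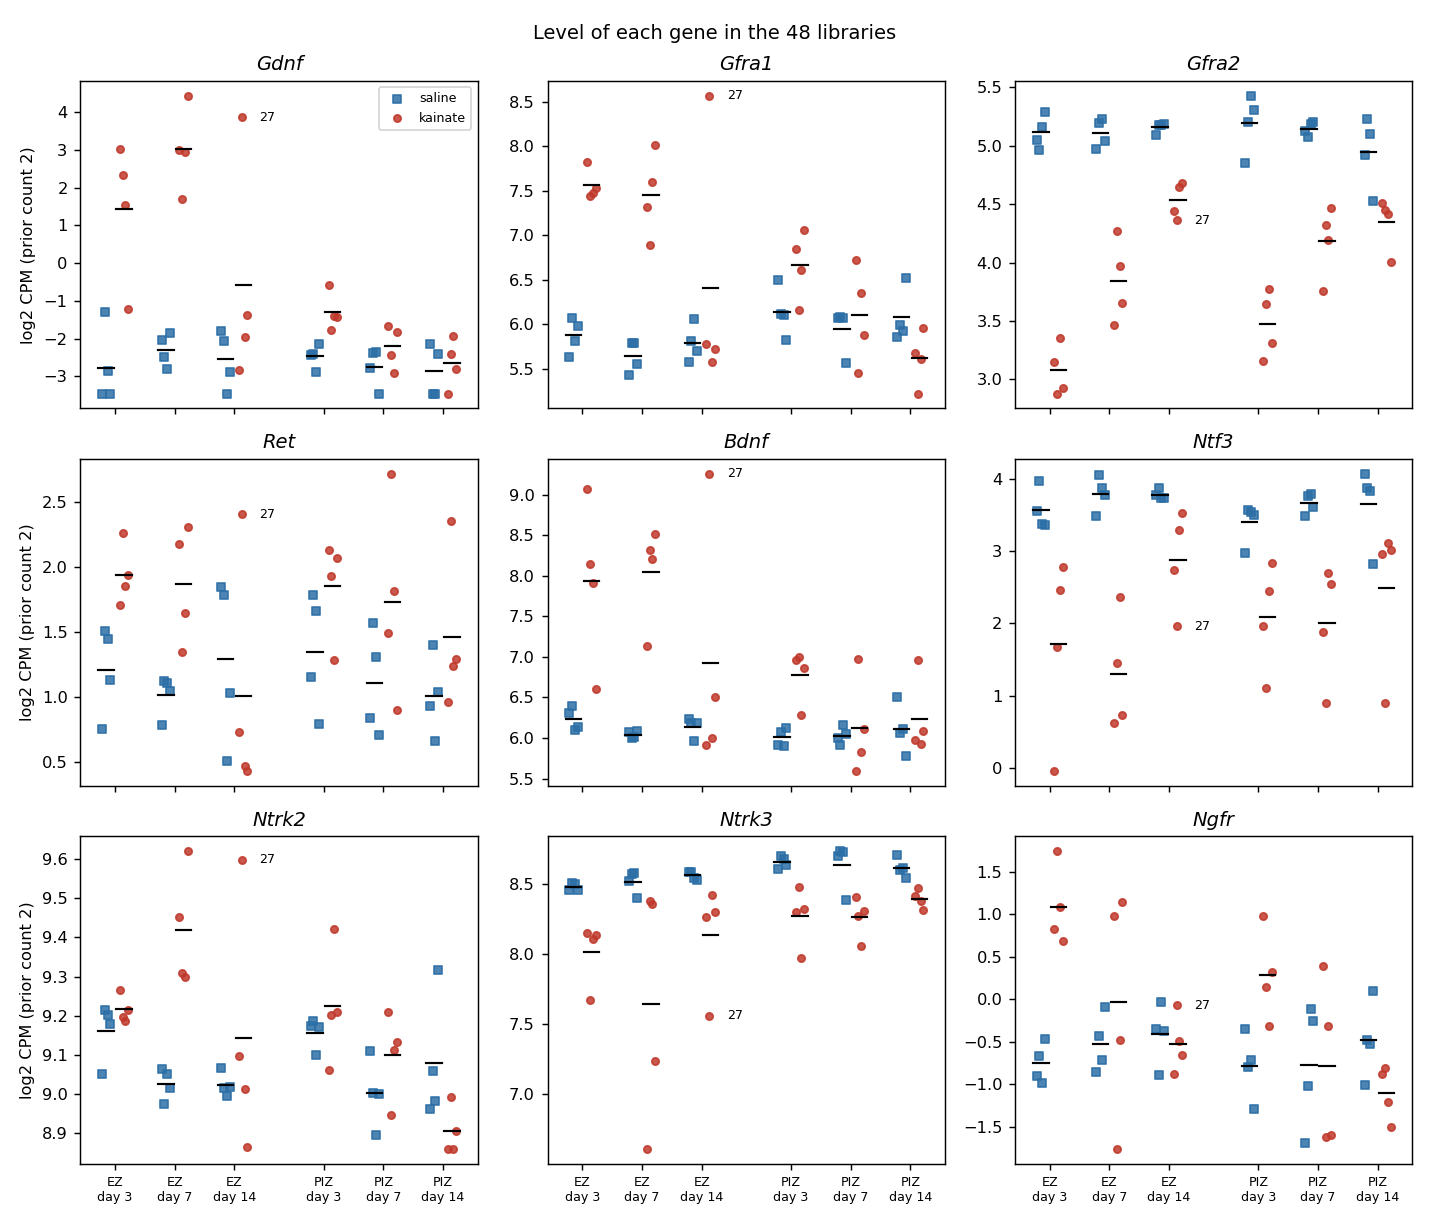
Level of each gene in every library as log2 CPM with a prior count of 2, by side and day, with squares for saline, circles for kainate and a bar at the mean of 4 mice; vertical scales differ between genes and the label 27 marks the EZ library of mouse 27. Gfra2 and Ntf3 kainate values lie below saline on both sides at days 3 and 7, and at day 14 the EZ means of Gdnf, Gfra1 and Bdnf are pulled up by mouse 27.

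Ntrk2 (ENSMUSG00000055254.16, chromosome 13, 58954176 to 59281784, plus strand), the BDNF receptor gene, moved little. The EZ values at day 3 were 615, 587, 583 and 594 CPM against 530 to 594 CPM, which overlapped (0.05 ± 0.10, adjusted p = 0.682). At day 7 the levels were 701, 634, 629 and 787 CPM against 503 to 535 CPM, higher in all 4 mice. This difference of 0.40 ± 0.10 (1.32-fold) had an adjusted p of 0.000746 and stayed below the fold limit of 1.5. In the PIZ the log2 fold changes lay between -0.18 and 0.10 with standard errors of 0.10.

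Ntrk3 (ENSMUSG00000059146.13, chromosome 7, 77825707 to 78387760, minus strand), which encodes the NT-3 receptor, fell in the EZ at day 7. At day 3 the EZ held 285, 204, 276 and 281 CPM against 353 to 364 CPM, below in every mouse (-0.45 ± 0.20, adjusted p = 0.0582). At day 7 mice 21 and 35 held 97.4 and 151 CPM, while mice 23 and 26 held 334 and 328 CPM, against 338 to 382 CPM in saline mice. The group had a log2 fold change of -0.69 ± 0.20 (adjusted p = 0.00342), and the call was lost without mouse 21 (-0.44, adjusted p = 0.0282) or mouse 35 (-0.54, adjusted p = 0.0322), and without saline mouse 34 (-0.67, adjusted p = 0.01). PIZ log2 fold changes were -0.38, -0.38 and -0.22 at days 3, 7 and 14 (adjusted p between 0.168 and 0.974).

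Ngfr (ENSMUSG00000000120.7, chromosome 11, 95459638 to 95478561, minus strand), which encodes p75NTR, was scarce in saline libraries, at 4 to 20 counts each. At day 3 the EZ kainate libraries held 1.68, 3.25, 2.03 and 1.52 CPM against 0.441, 0.540, 0.415 and 0.633 CPM. All 4 were above the saline range and the log2 fold change was 2.06 ± 0.45 (4.16-fold, adjusted p = 0.000287). The PIZ at day 3 held 1.88, 1.01, 0.716 and 1.16 CPM against 0.319 to 0.696 CPM, also without overlap (1.24 ± 0.46, adjusted p = 0.0474). The EZ mice divided at day 7, with 1.88 and 2.12 CPM in mice 21 and 35 and 0.204 and 0.624 CPM in mice 23 and 26 (0.97 ± 0.45, adjusted p = 0.0647). Mice 21 and 35 were also those with the lowest Ntrk3 and with the lowest summed granule cell markers, 537 and 676 CPM against 1693 and 1433 CPM in mice 23 and 26, and the part of this in either gene was not tested. Without mouse 23 the Ngfr difference was 1.30 with an adjusted p of 0.00558. At day 14 the log2 fold changes were -0.13 in the EZ and -0.75 in the PIZ (adjusted p = 0.92 and 0.94).

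Whether the kainate effect differed between the sides was tested as the EZ effect minus the PIZ effect. At day 3, 0 of 8 genes passed by edgeR (0.0655% of all genes did), 1 had an unadjusted p under 0.05, DESeq2 called 0 and limma-voom called 1, Gfra1, among 1879 of 21390 genes. The difference was 1.14 ± 0.53 for Gfra1 (adjusted p = 0.247) and 1.15 ± 0.63 for Bdnf (adjusted p = 0.334). At day 7, 0 of 8 passed by edgeR against 9.89% of all genes, with 3 at an unadjusted p under 0.05, 1 by DESeq2 (Gfra1, among 2916 of 18034 genes) and 4 by limma-voom (among 5126 of 21390 genes). Over all genes, the 2115 called by edgeR became 1 of 21597 without kainate mouse 21 and 3752 of 21733 without kainate mouse 23. Bdnf differed by 1.89 ± 0.64 (adjusted p = 0.0255), and with each mouse as a block, which pairs its 2 sides, by 1.90 ± 0.44 with an adjusted p of 0.00442, past the threshold. Gfra1 differed by 1.65 ± 0.53 (adjusted p = 0.0204), and by 1.66 ± 0.51 with the block (adjusted p = 0.0187). The effects on Ntf3 differed by -0.35 ± 0.60 at day 3 and -0.85 ± 0.61 at day 7 (adjusted p = 0.789 and 0.302). At day 14, 0 of 8 genes passed by edgeR, DESeq2 or limma-voom, with 3 at an unadjusted p under 0.05 and 0% of all genes called.

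The change of the EZ effect from day 7 to day 14 depended on mouse 27. With all mice, 0 of 8 genes passed by edgeR and by DESeq2 (0.271% of all genes by edgeR), 1 had an unadjusted p under 0.05, and limma-voom called 5, where it called 6301 of 21390 genes in all. Without mouse 27 the edgeR fit called 4087 of 21688 genes, 4 of the 8 among them. The effect was then lower at day 14 than at day 7 by 1.97 for Gfra1 (log2 change -1.97 ± 0.31, adjusted p = 1.1e-05), by 2.06 for Bdnf (-2.06 ± 0.43, adjusted p = 0.000299) and by 1.81 for Ret (-1.81 ± 0.46, adjusted p = 0.00237), whose log2 fold change went from 0.93 to -0.88. The Ntf3 effect moved by 1.81 ± 0.55 toward 0 (adjusted p = 0.00925). Between days 3 and 7 in the EZ, 0 of 8 genes passed by edgeR and DESeq2 (0.145% of all genes by edgeR), 1 had an unadjusted p under 0.05 and limma-voom called 1, Ntrk3, among 1225 of 21390 genes. On the PIZ side, 0 of 8 passed between days 3 and 7 (0.0234% of all genes) and between days 7 and 14 (0%) by edgeR and DESeq2, with 0 at an unadjusted p under 0.05.

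Mouse 27 was the highest or the lowest of the 4 kainate mice of day 14 in the EZ for each of the 9 genes. Its EZ library held 14.5 CPM of Gdnf where the other 3 mice held 0.0504, 0.169 and 0.292 CPM. For Gfra1 it held 378 CPM against 54.8, 47.5 and 52.8 CPM, and for Bdnf 613 CPM against 60.3, 64.1 and 90.9 CPM. These were the highest EZ values of Gfra1 and Bdnf in all 24 mice, and its Ntrk3 (189 CPM) and Ntf3 (3.81 CPM) were the lowest of its group. With mouse 27 the day 14 log2 fold changes were 5.21 ± 1.15 for Gdnf (adjusted p = 0.0043), 1.26 ± 0.38 for Gfra1 (adjusted p = 0.0399) and 1.55 ± 0.45 for Bdnf (adjusted p = 0.0349). Without it they were 0.83 ± 1.22, -0.10 ± 0.23 and 0.024 ± 0.31, each with an adjusted p of 1.0. Leaving it out moved the log2 fold changes of the other genes from -0.11 to -0.88 for Ret, from -0.39 to -0.23 for Ntrk3, from -0.79 to -0.56 for Ntf3, from 0.15 to -0.029 for Ntrk2 and from -0.13 to -0.33 for Ngfr, and Gfra2 stood at -0.62 with and -0.57 without it. The PIZ library of this mouse also had the highest Bdnf (124 CPM against 60.5 to 68.1) and the lowest Ntf3 (1.77 CPM against 7.66 to 8.54) of its group. In its EZ library the summed level of 7 microglia markers was 3184 CPM against 503 to 752 CPM in the other 3 mice, that of 7 astrocyte markers 11421 against 5306 to 6013 CPM, and that of 8 granule cell markers 1052 against 1646 to 1977 CPM, and their part in these values was not tested.

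Cell type markers moved with the groups as well. In the EZ at day 3, 6 of 7 microglia markers, 4 of 7 astrocyte markers, 5 of 5 mural and fibroblast markers, 3 of 4 endothelium markers and 3 of 4 leukocyte markers rose, while 3 of 8 granule cell markers, 5 of 8 interneuron markers, 2 of 4 CA1 markers, 2 of 4 CA3 markers and 1 of 3 choroid plexus markers fell. Of all genes, 16.1% rose and 8.61% fell. Summed mossy cell markers in EZ kainate libraries were 44.7 to 68.7 CPM at day 3 against 74.9 to 103 CPM in saline libraries. At day 7 they were 46.8 to 52.1 CPM against 72.9 to 117 CPM. Summed pyramidal markers of EZ kainate libraries at day 3 were 56.9 to 167 CPM for CA1 against 242 to 464 CPM, and those for CA3 had a median of 105 CPM against 282 CPM, both without overlap. Summed leukocyte markers were 44.2 to 118 CPM in the EZ at day 3 against 14.8 to 27.5 CPM and 34.1 to 44.1 CPM in the PIZ against 10.7 to 16.6 CPM, and choroid plexus sums in the EZ were 6.31 to 8.59 CPM against 17.4 to 21.1 CPM. CA1 sums were also lower without overlap in the PIZ at day 3, at 112 to 247 CPM against 275 to 511 CPM. The summed granule cell level was 833 to 1462 CPM in EZ kainate libraries at day 3 against 1786 to 1905 CPM, and 537 to 1693 CPM at day 7 against 1751 to 2020 CPM. The PIZ sum at day 3 was 1516 to 1639 CPM in kainate libraries against 1179 CPM in saline mouse 18 and 1743 to 1854 CPM in the other 3 saline mice. Summed microglia markers in the PIZ at day 3 were 976 to 1191 CPM against 305 to 418 CPM, with 7 of 7 higher, where 8.69% of all genes were called. Summed astrocyte markers there were 8640.5 to 9456 CPM against 4173 to 5618 CPM. In the EZ at day 7, microglia sums were 1734 to 6476 CPM against 446 to 491 CPM and astrocyte sums 10988 to 12419 CPM against 4790 to 5491 CPM. Saline PIZ libraries of mouse 18 at day 3 and mouse 39 at day 14 had low granule cell sums (1179 and 1074 CPM, where the others of their groups had at least 1743 and 1899 CPM) and high mossy cell sums (198 and 230 CPM against at most 121 and 93.8 CPM). The same 2 libraries held the lowest saline Gfra2 (28.8 and 23.01 CPM) and Ntf3 (7.80 and 7.00 CPM) and the highest Gfra1 (90.3 and 91.995 CPM) of their groups. The PIZ library of kainate mouse 21 at day 7 also had a low granule cell and a high mossy cell sum, with a granule cell sum of 912 CPM against 1607 to 1827 CPM, a mossy cell sum of 214 CPM against 87.6 to 128 CPM, the highest Gfra1 (105 CPM) and the lowest Gfra2 (13.4 CPM) of its group, while its Ntf3 (3.58 CPM) was not the lowest. The part of cell composition in the values of the 9 genes was not tested.

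The other ligands of the 2 families gave 2 genes that rose in the EZ at day 3 among 3 that could be tested of 6 listed, where 16.1% of all genes rose. Nrtn, which encodes neurturin, the ligand that GFRα2 prefers, rose with a log2 fold change of 3.10 ± 0.65 (adjusted p = 0.000192), where Gfra2 itself was low. Gdf15, a stress-induced relative that signals through GFRAL, rose by 5.01 ± 0.91 (adjusted p = 3.04e-05), and Gfral had at most 2 counts in any library. Both were scarce, with 4 to 19 counts of Nrtn per EZ kainate library against 0 to 2 and 8 to 50 counts of Gdf15 against 0 to 1, so these fitted folds depend on the prior count. Such saline counts were too low to pass the filter, so both genes entered the test through libraries where they were high. The 2 of 3 is therefore not a fair count beside the share of all genes. Ntf5, Artn and Pspn did not pass the filter for low counts. Nrtn in the PIZ at day 3 had 1.69 ± 0.67 (adjusted p = 0.0628) and Gdf15 1.63 ± 1.26 (adjusted p = 0.367).

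Among the other receptors and co-receptors, 7 of 10 could be tested, and 4 rose (16.1% of all genes) and 2 fell (8.61%) in the EZ at day 3, with a median log2 fold change of 0.91. Sort1, encoding sortilin, the partner of p75NTR in binding proneurotrophins, fell by 1.04 (log2 fold change -1.04 ± 0.15, adjusted p = 1.61e-06), and its relatives Sorcs3 (1.85 ± 0.38), Sorcs1 (1.38 ± 0.36) and Sorcs2 (0.91 ± 0.25) rose. Gfra4, the co-receptor for persephin, fell (-0.88 ± 0.22, adjusted p = 0.000918). Sdc3, a heparan sulfate proteoglycan that can bind GDNF, rose (1.26 ± 0.18), and Ncam1, the adhesion molecule that can serve GDNF without RET, had -0.08 ± 0.06 (adjusted p = 0.328). The same 6 genes were called in the same directions at day 7 (20.6% higher and 11.9% lower of all genes), and Gfral and Gfra3 had too few counts to test. Sorcs1 was the 1 gene of the 7 called in the PIZ at day 3 (1.37 ± 0.36, adjusted p = 0.00471, against 8.69% of all genes), with 0 of 7 called there by edgeR without saline mouse 18. At day 14 it was also the 1 gene of the 7 called in the EZ (1.58 ± 0.36, adjusted p = 0.00569, against 2.36% of all genes), where it had 0.66 ± 0.28 without mouse 27 (adjusted p = 0.885).

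**Figure D4:**
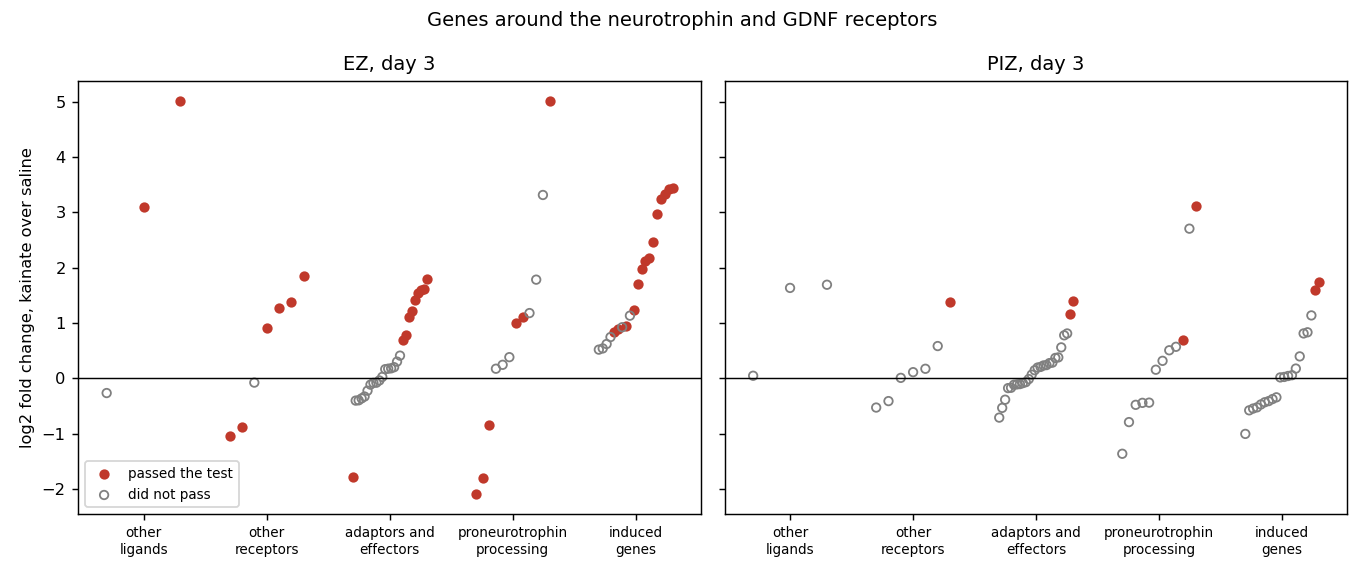
Log2 fold change of kainate over saline at day 3 for the genes of 5 lists around the receptors, EZ on the left and PIZ on the right, with 1 point per gene, filled where the gene passed the test. Genes induced by neurotrophin signaling or activity lie above 0 in the EZ, 14 of 20 filled, and spread on both sides of 0 in the PIZ, 2 of 20 filled.

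Downstream of the receptors, 9 of 26 adaptors and effectors rose and 1 fell in the EZ at day 3, where 16.1% of all genes rose and 8.61% fell, with a median log2 fold change of 0.18. Shc4 (1.80 ± 0.28) and Sh2b2 (1.61 ± 0.33), which encode docking proteins for Trk receptors, rose the most, and Dok6, encoding a RET adaptor, fell (-1.79 ± 0.29). Of the 12 tested genes of 14 for proneurotrophin processing, 3 rose and 3 fell, with a median of 0.69. Furin (1.10 ± 0.15), a convertase that cleaves proneurotrophins, rose, whereas Serpini1 (-2.09 ± 0.27), which encodes neuroserpin, and the convertase gene Pcsk2 (-1.80 ± 0.31) fell. In the PIZ at day 3, 2 of 26 adaptors were higher, near the 8.69% of all genes called there. They were Nradd (1.40 ± 0.29), a relative of p75NTR, and Plcg2 (1.15 ± 0.30). Of 12 processing genes, 2 were higher, among them Plat (0.70 ± 0.19), which encodes tissue plasminogen activator.

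Genes induced by neurotrophin signaling or neuronal activity rose with Bdnf in the EZ. At day 3, 14 of 20 rose and 0 fell (median log2 fold change 1.47), where 16.1% of all genes rose. With only the compared groups in the fit 8 of 20 rose, where 4625 of 19371 genes were called in either direction. The list was led by Fos (3.45 ± 0.63), an immediate early transcription factor, and Nptx2 (3.41 ± 0.44), a secreted pentraxin that clusters AMPA receptors. On the other side at day 3, 2 of 20 rose, near the 8.69% of all genes called there, Rgs4 (1.75 ± 0.24), a regulator of G protein signaling, and Nptx2 (1.59 ± 0.42), and the median was 0.02. At day 7 the EZ counts were again 14 higher (20.6% of all genes) and 0 lower (11.9%) of 20, and at day 14, where 2.36% of all genes were called, edgeR called 0 of 20, DESeq2 called 1, limma-voom called 0 and 7 had an unadjusted p under 0.05, with a median of 0.73 that includes mouse 27. Over all 5 lists, 0 of 68 genes were called in the PIZ at days 7 and 14 by edgeR (0.201% and 0.0140% of all genes) and DESeq2, with 13 and 5 at an unadjusted p under 0.05 and 2 and 0 by limma-voom.

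The protein-coding genes with the most similar course over the 12 group means, as Pearson correlations of log2 CPM among 13105 genes, were Glul (0.984) and Camkk2 (0.980) for Gfra2, Commd9 (0.988) and Fosl2 (0.985) for Gfra1, and Nt5dc1 (0.993) and Eef1b2 (0.992) for Gdnf. For Bdnf they were Extl3 (0.993) and Myo1e (0.992), for Ntf3 Pcp4 (0.987) and Cap2 (0.984), for Ntrk2 Hibadh (0.974) and Farp1 (0.964), and for Ntrk3 Naa30 (0.989) and Togaram1 (0.987). Ret had Pycr3 (0.931) and Lrrc8a (0.927), and Ngfr had Hmga1 (0.983) and Hmga1b (0.973), a near-identical copy of Hmga1 whose counts are uncertain. These are descriptions over 12 means, in which the EZ and PIZ means of the same injection and day come from the same mice. The means of the EZ kainate group at day 14 include mouse 27.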

How the data were processed

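Each of 24 mice gave an EZ and a PIZ library of dentate gyrus RNA, and these 48 were grouped by side, injection and day from the sample records alone. Per the labels, the authors trimmed reads with fastp 0.20.1, aligned them to GRCm39 with HISAT2 2.2.1 and counted Gencode M28 genes with featureCounts (Subread 1.6.4), stranded and with multi-mapping reads at their primary alignment. The authors deposited raw counts per gene and library, without normalization. Counting by strand keeps antisense genes apart, and genes on the same strand overlap Ntrk2, Ntrk3 and Ngfr. Of 55357 identifiers, 98.9% matched Gencode M39, which gave symbols, positions and exon lengths.

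Low counts were removed by filterByExpr (edgeR 4.0.16, R 4.3.3) on the 12 groups, TMM factors set the library sizes, and 1 mean per group was fitted over 48 libraries, with p-values adjusted over 21390 genes. Standard errors came from the F statistic, as the size of the log2 fold change over the root of F. Counts simulated for the EZ at day 3 (21390 genes) gave calls for 89 of 94 genes with a 4-fold and 83 of 106 with a 2-fold change. The changed genes had a mean above 1 CPM, and all libraries were drawn independently. These rates therefore do not cover scarcer genes such as Ngfr, paired libraries or libraries that stand apart. Libraries of a group came from separate mice. The 2 libraries of a mouse come from 1 animal and so are paired, and their residuals correlated between -0.0606 and 0.539. No libraries had identical counts. Promoter windows came from the RefSeq table. Alternatives were DESeq2 1.42.0, limma-voom (limma 3.58.1), RLE size factors, library size only, other filters, only the compared groups, mouse as a block, an adjusted p under 0.05 without a fold limit, a prior count of 0.5, and each mouse left out.

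The 9 genes, the lists and the naming rule were chosen with earlier results of these data known. Named were the 9 genes, all genes of the lists of other ligands and receptors, in each of the other 3 lists the 2 most raised and 2 most lowered called genes of the EZ and of the PIZ at day 3, and the 2 genes of most similar course, except that some list genes are not reported here. Sex of single mice was not used. Protein sequences were not used here.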

Additional observations from a re-analysis of the deposited data

Results flagged for a closer look

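In 9 of 108 groups of 4 libraries (8.33%, where chance gives about 1 in 20), 1 library lay far from the other 3 by Dixon's test at the 95% level. In the EZ of kainate mice at day 14, mouse 27 had a Gfra1 level of 378 CPM against 47.5 to 54.8 CPM and a Ret level of 5.21 CPM against 1.25 to 1.56 CPM. Its PIZ library held 124 CPM of Bdnf against 60.5 to 68.1 CPM and 1.77 CPM of Ntf3 against 7.66 to 8.54 CPM. Kainate mouse 38 at day 3 held 204 CPM of Ntrk3 in the EZ against 276 to 285 CPM. Among saline libraries, mouse 24 held 34.1 CPM of Gfra2 in the EZ at day 14, where the others held 36.2 to 36.4 CPM, a narrow range. Saline mouse 89 at day 7 had low PIZ levels of Gfra1 (47.5 CPM against 67.1 to 67.5) and Ntrk3 (335 CPM against 416 to 427). Saline mouse 18 at day 3 held 7.80 CPM of Ntf3 in the PIZ against 11.2 to 11.8 CPM.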

How the results depend on the processing

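Of 8 genes, the number called in the EZ at day 3 moved from 5 to 3 with at least 10 counts in every library, a filter that removes Gdnf and Ngfr before the test, and with only the compared groups in the fit, where Gdnf was removed and Ntf3 lost, and it ranged from 3 to 5 with mice left out. At day 7 in the EZ it stayed within 4 to 7 of the 5 called, with Ntrk3 lost with only the compared groups and Ret and Ntrk2 gained at an adjusted p under 0.05, and ranged from 4 to 6 with mice left out. At day 14 in the EZ it moved from 1 to 0 with at least 10 counts and with only the compared groups, both of which remove Gdnf before the test, and with limma-voom, to 3 at an adjusted p under 0.05 without a fold limit, and ranged from 0 to 3 with mice left out. In the PIZ at day 3 it moved from 0 to 1 with only the compared groups, 3 with limma-voom and 2 at an adjusted p under 0.05, and at day 7 from 0 to 1 with limma-voom. For the EZ effect minus the PIZ effect it moved from 0 to 1 at day 3 with limma-voom, and at day 7 from 0 to 2 with only the compared groups or an adjusted p under 0.05, to 1 with DESeq2, to 4 with limma-voom and to 1 with the replicate block by mouse, which changed no other call. Limma-voom moved the count from 0 to 1 for day 7 minus day 3 and from 0 to 5 for day 14 minus day 7 in the EZ, and the latter ranged from 0 to 4 with mice left out, 4 without mouse 27. The sign turned for Gfra1 in the EZ at day 14 with limma-voom (-0.053) and without mouse 27 (-0.10, against up to 1.55 without other mice), for Bdnf there with limma-voom (-0.039), for Ntrk2 there without mouse 27 (-0.029, otherwise up to 0.24), and for Ngfr in the PIZ at day 7 without kainate mouse 21 (-0.45, otherwise up to 0.40). Leaving out 1 mouse also turned the sign of fold changes that were not called, over ranges of -0.88 to 0.10 for Ret and -0.33 to 0.028 for Ngfr in the EZ at day 14, -0.17 to 0.36 for Bdnf and -0.022 to 0.39 for Gfra1 in the PIZ at day 7, and -0.14 to 0.31 for Bdnf and -0.26 to 1.21 for Gdnf in the PIZ at day 14. Of the lists at day 3 in the EZ, the genes called moved from 2 to 0 for other ligands with only the compared groups and with at least 10 counts, the latter a filter that removes both genes before the test, from 14 to 8 for induced genes with only the compared groups, and from 10 to 17 for adaptors and 6 to 10 for processing genes at an adjusted p under 0.05. Over all genes there, 5280 of 21390 were called in the main fit and 4625 of 19371 with only the compared groups. An adjusted p under 0.05 without a fold limit called 10277 of 21390 genes in the EZ at day 3 and 12193 at day 7. It called 1098 in the EZ at day 14 and 4914 in the PIZ at day 3. In the PIZ at day 3 the counts of 1 or 2 per list ranged from 0 to 8. The causes were not tested, other than that limma-voom gives discordant libraries less weight. Gdnf, whose mean saline level moved from -2.61 to -3.61 on the log2 CPM scale with a prior count of 0.5, and Ngfr and Ret are limited by their low counts.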
